A study of Drosophila melanogaster with 4 samples.

Results

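The genes described here encode the chemoreceptors of the fruit fly Drosophila melanogaster: the odorant receptors (Or, with their co-receptor Orco), the gustatory receptors (Gr) and the ionotropic receptors (Ir). They were chosen by name, as every gene with a probe set of its own whose symbol is Orco or begins with Or, Gr or Ir followed by a digit. The choice gave 124 genes, measured by 129 probe sets, among 10844 genes in all. The odorant receptors and Orco made up 53 of them, the gustatory receptors 28 and the ionotropic receptors 43. RefSeq lists 187 genes with such symbols, 7 of them pseudogenes, and the other 63 were not analysed here. A gene with more than 1 probe set was represented by the brightest of them on average.

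RNA of whole adult flies was measured on 4 one-colour Affymetrix arrays, each with 1 sample of a single baseline group (n = 4). The flies had eaten a standard diet as young larvae and food without yeast from early in the third larval instar on, and were killed as adults 4 days after emergence, just before a refeeding time course. Arrays 1, 2, 3 and 4 stand for the samples that the labels order as hours -4, -3, -2 and -1. The labels used here do not state the strain, the sex, the number of flies per sample or whether cultures were separate, so that p-values measure only the spread between these samples, which may be technical. Values are intensities on a linear scale, normalized between arrays by the authors. The median over all probe sets was 112 to 113 on every array. Array 3 stood apart in 14 markers of male reproductive tissue, which were all highest there and summed to 3965 against 1122 to 1205 on the other arrays. These markers were listed with earlier results of these data known. One of them, Acp29AB, was hardly higher on array 3 (51.74) than on array 1 (51.73). Without array 3, the count of receptor genes above background was 18 as with it. On that array 29 of the 124 receptor genes (23.4%) had their highest value, against 26.1% of all genes.

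Odorant and gustatory receptors are multi-pass membrane proteins that form ligand-gated cation channels, each odorant receptor together with Orco. Ionotropic receptors are relatives of the ionotropic glutamate receptors, and most of them work with broadly expressed co-receptors such as Ir8a, Ir25a or Ir76b. Each tuned receptor is typically made by a small class of sensory neurons in the antenna, maxillary palp, labellum, pharynx, legs or wings. Their messenger RNA is therefore a very small part of the RNA of a whole fly.

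The background level of an array was taken from 23 control probe sets for mouse, yeast and Bacillus sequences. The median control had an intensity of 46.1 to 48.7 on the 4 arrays, and the highest control, a mouse interleukin probe set, 119 to 133. A gene was counted as above background when its intensity exceeded the highest control on every one of the 4 arrays. This is a description against 23 probe sets and not a test. Intensities of different probe sets are not set against each other as amounts of RNA, since each probe set has its own affinity. In whole flies, few cells that make a receptor and little RNA per cell cannot be told apart.

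Few chemoreceptor genes stood above background. By this count 18 of 124 genes (14.5%) were above the highest control on all 4 arrays, while the same rule took 42.5% of all 10844 genes. A further 4 receptor genes passed it on 2 or 3 arrays, and 102 on none. Of all 10844 genes, 994 passed it on some of the arrays and 5240 on none. Above the median control on all arrays were 82 receptor genes (66.1%), against 85.4% of all genes. At the other end, 32 receptor genes (25.8%) lay below the median control on all 4 arrays, against 10.3% of all genes. By its brightest probe set, no receptor gene was below the lowest control on all 4 arrays, and 49 of all 10844 genes were. Between these ends, 60 receptor genes were above the median control on all arrays and above the highest control on none. The same held for 3664 of all 10844 genes. The families gave like shares: 9 of 53 odorant receptor genes (17%), 4 of 28 gustatory receptor genes (14.3%) and 5 of 43 ionotropic receptor genes (11.6%).

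**Figure D1:**
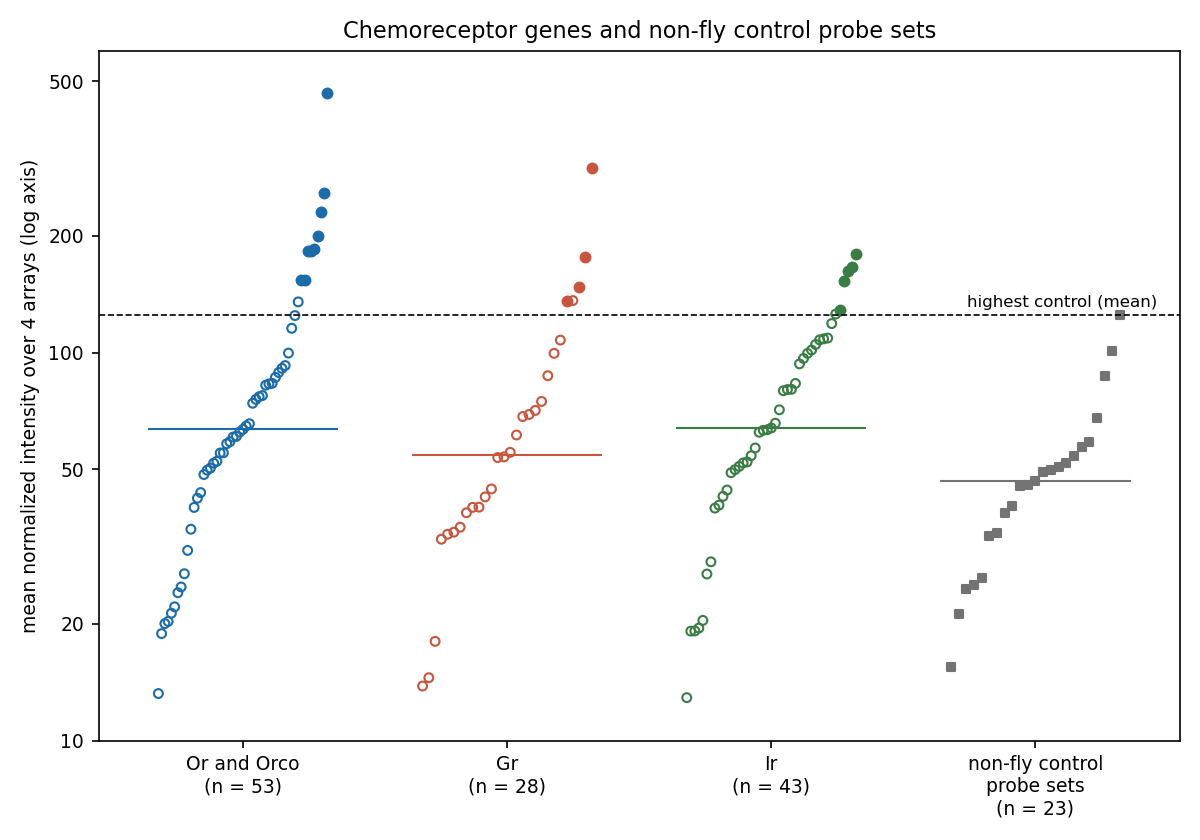
Mean intensity over the 4 arrays (log axis) of each odorant, gustatory and ionotropic receptor gene, and of each non-fly control probe set at the right, ordered within its group. Filled circles are the 18 genes above the highest control on all 4 arrays, open circles the other 106, horizontal bars the group medians, and the dashed line the mean of the highest control (125). Most receptor genes lie in the same range of intensity as the controls.

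Orco, the obligate partner of the tuned odorant receptors, was above background by a small margin. Its intensity was 167, 149, 155 and 147 on arrays 1 to 4, a mean of 154 ± 8.85 (SD, n = 4). The highest control on the same arrays had 121, 119, 126 and 133, so that Orco exceeded it at least 1.10-fold.

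Of the receptors tuned to food odours, 3 of 10 measured genes (30%) were above background, against 14.5% of all receptor genes and 42.5% of all genes. Or59b, a receptor of antennal neurons that respond to acetate esters, had 438, 514, 432 and 482, at least 3.43 times the highest control. Or22b, expressed with Or22a in antennal neurons tuned to fruit esters, had 253, 238, 269 and 271. Or7a, a receptor of antennal basiconic neurons, had 233, 235, 214 and 237. All 3 genes thus lay well outside the range of the controls on each array.

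The other 7 food-odour receptors were within the range of the controls. Or85a had 110 to 121, Or85d 82.9 to 94.7 and Or42b, a receptor for vinegar odours, 74.7 to 81.8. Or22a (56.1 to 63.1) and Or43b (50.4 to 62.3) were nearer the median control. Or42a had 37.8 to 47.9 and Or92a, another receptor for vinegar odours, 21.7 to 27.0, below the median control on all 4 arrays. Or22a and Or22b are close relatives that lie next to each other in the RefSeq annotation (Release 6 plus ISO1 MT). Each of their probe sets may take up RNA of both genes, which was not tested.

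Among the pheromone receptors, Or47b was above background and Or67d and Or88a were not. Or47b, which detects fly-derived fatty acid methyl esters and takes part in male courtship, had 147, 149, 158 and 160, at least 1.20 times the highest control. Or67d, the receptor for the male pheromone cis-vaccenyl acetate, had 50.6 to 58.1, and Or88a 77.3 to 92.6. Both were above the median control on every array and below the highest.

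Receptors of adult olfactory neurons with other ligands gave 3 genes of 24 (12.5%) above background, against 14.5% of all receptor genes and 42.5% of all genes. Or9a had 186, 200, 189 and 224, Or49b, which responds to phenolic compounds, 189, 175, 179 and 195, and Or2a 187, 169, 189 and 188. Or46a, a maxillary palp receptor gene with alternative transcripts, passed on 3 arrays (150, 132, 136 and 123). Or35a, a broadly tuned receptor of coeloconic sensilla, passed on 2 arrays with 120 to 128. In this list 8 genes (33.3%) were below the median control on all arrays, against 10.3% of all genes. Among them were Or67a (23.1 to 29.8) and Or56a (19.4 to 29.8), the receptor for the mould odour geosmin.

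A receptor known mainly from larval olfactory neurons was among the genes above background. Or22c had 178, 185, 184 and 186 in these adult flies, at least 1.39 times the highest control. It was the 1 gene of 12 measured larval receptors (8.33%) above that line, against 14.5% of all receptor genes and 42.5% of all genes. The other 11 had means between 20.3 (Or85c) and 83.4 (Or74a). Below the median control on every array were 3 of the 12 (25%), against 10.3% of all genes.

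Gustatory receptors above background were Gr68a, Gr2a, Gr8a and Gr98d. Gr68a, described in gustatory neurons of the male foreleg, had 294, 301, 306 and 299, at least 2.24 times the highest control. Gr2a had 183, 184, 171 and 168. Gr8a, part of the receptor for the plant toxin L-canavanine, had 142, 147, 143 and 160. Gr98d had 132, 137, 128 and 145, and at 1.02 times the highest control on array 3 it was the gene nearest to the line from above. Gr57a passed on 3 arrays, with 119, 140, 134 and 153.

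None of the gustatory receptors with the best known ligands was above background, against 14.5% of all receptor genes and 42.5% of all genes. The sugar receptors Gr5a, Gr61a and Gr64f and the fructose receptor Gr43a had means of 71.0 ± 2.85, 87.2 ± 1.81, 68.4 ± 6.92 and 108 ± 2.01 (SD, n = 4), above the median control and below the highest on all arrays. The bitter receptors Gr32a, Gr33a, Gr47a, Gr66a, Gr89a and Gr93a had means between 14.5 and 53.9. Gr66a, the common marker of bitter neurons, had 39.1, 32.2, 47.2 and 36.2. Gr33a, a bitter co-receptor, was the 1 gene of these 6 above the median control on all 4 arrays. That line was passed by 66.1% of all receptor genes and 85.4% of all genes. The carbon dioxide receptors Gr21a and Gr63a had 69.8 to 80.5 and 58.3 to 67.3. Gr28a and Gr28b, which take part in sensing RNA nutrients, light and heat, had 29.0 to 36.7 and 52.6 to 57.6.

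The ionotropic receptors above background were Ir8a, Ir84a, Ir85a, Ir56b and Ir56c. Ir8a, the co-receptor of acid-sensing receptors, had 172, 158, 165 and 153. Ir84a, a partner of Ir8a that detects phenylacetic acid and phenylacetaldehyde and promotes male courtship, had 186, 196, 164 and 173. Ir56b, a subunit of a salt taste receptor, had 156, 150, 147 and 161. Ir85a had 159, 156, 165 and 184, and Ir56c had 124, 123, 129 and 138, at least 1.02 times the highest control. Ir92a, which detects ammonia and amines, passed on 3 arrays with 123, 121, 129 and 130.

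The co-receptors Ir25a and Ir76b, which are found in many more neurons than any tuned receptor, were not above background. Ir25a had 59.4, 61.3, 69.0 and 62.6, and Ir76b 50.1, 51.7, 51.0 and 55.1, both above the median control and below the highest. The receptors for temperature and humidity, Ir40a, Ir93a, Ir68a and Ir21a, had means of 83.3, 63.3, 26.9 and 19.5, the last pair of genes below the median control throughout. Of 7 measured antennal ionotropic receptors, 1 (14.3%), Ir84a, was above background, against 14.5% of all receptor genes and 42.5% of all genes. Ir75b, Ir75a, Ir64a and Ir76a had means from 62.4 to 108. Ir41a, a receptor for polyamines, had 17.1 to 22.2.

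**Figure D2:**
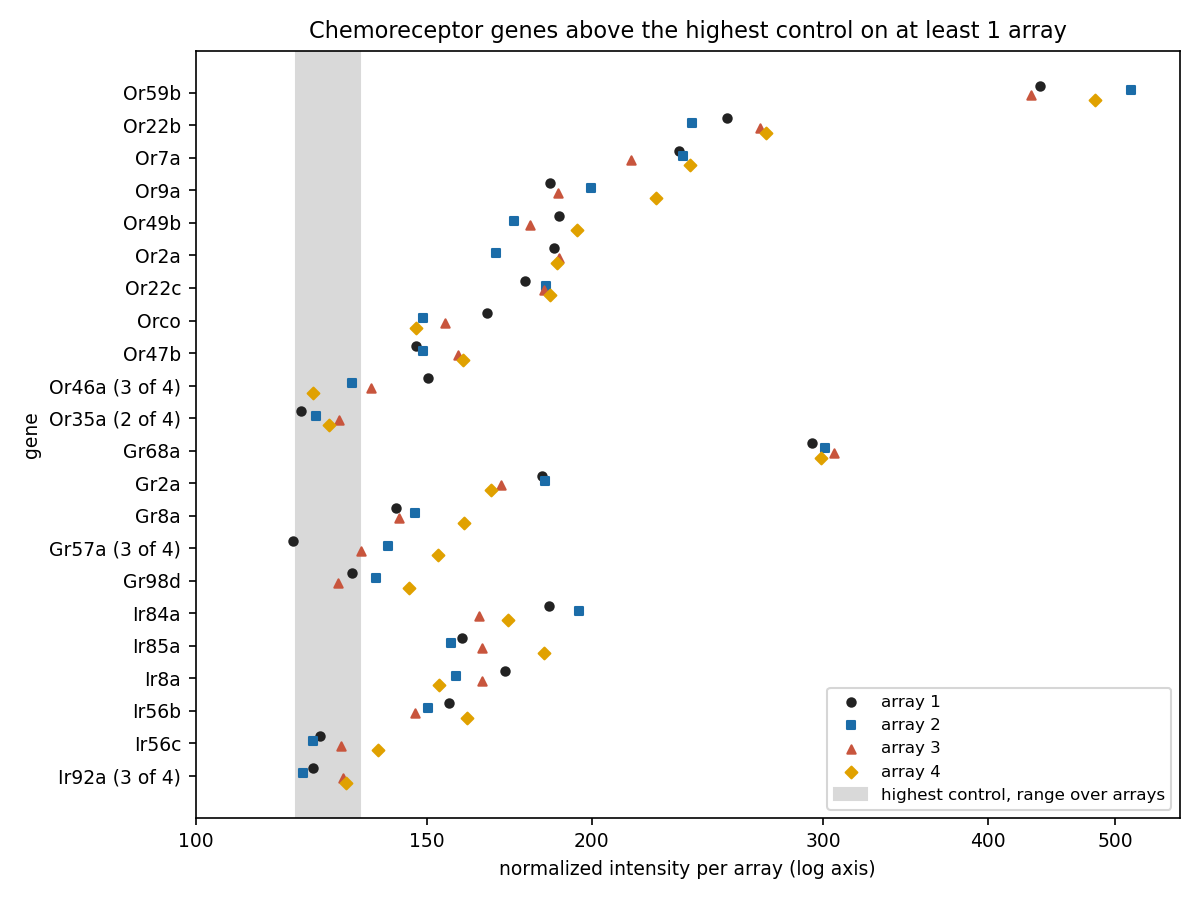
Intensity on each of the 4 arrays (log axis) of the 22 chemoreceptor genes above the highest control on at least 1 array, grouped as Or, Gr and Ir from top to bottom. The grey band is the range of the highest control over the arrays (119 to 133), and a fraction beside a gene gives the number of arrays on which it passed. Or59b, Gr68a, Or22b and Or7a lie far to the right of the band, and Ir56c, Ir92a and Or35a at or near it.

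Several probe sets of 1 gene gave different calls for Ir8a and Or46a. The second Ir8a probe set had 103, 105, 116 and 114 and was above the highest control on no array. The second Or46a probe set had 65.4, 71.6, 71.3 and 78.7, also above it on none. For Ir40a, Ir93a and Ir10a both probe sets were within or below the range of the controls on all arrays. Ir93a had 60.8 to 66.2 by one probe set and 5.51 to 10.3 by the other, so that the 2 did not overlap on any array. The lower of them was below the lowest control (12.3 to 19.4) on every array.

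Some of the genes above background share their locus with another gene. In the RefSeq annotation named above, 5 of the 18 genes above background (27.8%) have a span that overlaps another protein-coding gene or pseudogene, and 25 of the other 106 (23.6%). For 4 of the 5 an overlapping gene was itself above background on all 4 arrays, and for 8 of the 23 others whose overlapping gene was measured (34.8%), beside 42.5% of all genes. The 4 pairs are Or59b with CG43795 (298 to 325), Gr68a with loaf (186 to 209), Gr2a with the neuronal cytoskeleton gene futsch (187 to 219) and Gr8a with CG12121 (159 to 170). CG43795 also overlaps Or59c, which was not above background (67.0 to 78.4). The fifth gene, Ir85a, overlaps Pif1A (26.4 to 37.3) and Pif1B. Whether RNA of the overlapping genes entered the receptor values was not tested.

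Neighbouring receptor genes of 1 family shared their call in some cases and differed in others. Ir56b and Ir56c are adjacent and both were above background, while the next gene, Ir56d, had 68.5 to 74.3. Or59b, above background, likewise lies beside Or59c. An adjacent member of the same family was present for 5 of the 18 genes above background (27.8%) and for 36 of the other 106 (34%).

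Lists of genes that act beside the receptors also held genes above background, each at a share below the 42.5% of all genes. Their shares were not tested against this or against the 14.5% of the receptors. Of 35 odorant-binding protein genes, whose products carry odorants in the sensillar fluid, 12 (34.3%) were above background. Obp19d had 807 ± 100 and Obp83b 330 ± 16.3 (SD, n = 4). Of 24 other genes of chemosensory transduction and neuron identity, 7 (29.2%) were above background. They were Snmp1, a membrane protein required for pheromone detection (141 to 148), the channel genes TrpA1 (168 to 188) and ppk (162 to 173), the signalling genes Ggamma30A (240 to 278) and Plc21C (181 to 215), and the arrestin genes Arr1 and Arr2 (3098 to 3270 and 4454 to 4686). The arrestins also serve the photoreceptors of the eye. Of 11 ionotropic glutamate receptor genes, the relatives of the Ir family, 2 (18.2%) were above background, GluRIB (159 to 183) and Nmdar2 (279 to 311).

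Markers of most tissues of a whole fly were present. Above background were 5 of 8 neuron markers, 3 of 4 photoreceptor markers, 5 of 8 antennal support cell markers, 8 of 9 muscle markers, 7 of 8 gut markers, 5 of 5 fat body markers and 8 of 9 female germline and egg markers. By the same rule 42.5% of all genes were above background. Of the 14 male reproductive markers, 1 was above background on all 4 arrays and 11 on some of them, all but Mst84Dd on array 3 alone. Among the neuron markers, nSyb had 469 to 547 and elav 94.9 to 113, within the range of the controls. The 5 antennal support cell markers above background were all odorant-binding protein genes. Of the others, the pheromone-binding protein gene lush was at 31.5 to 38.5 and Snmp2 at 39.5 to 45.7, both below the median control. The last, a5, had 53.2 to 59.1 and lay within the range of the controls.

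**Figure D3:**
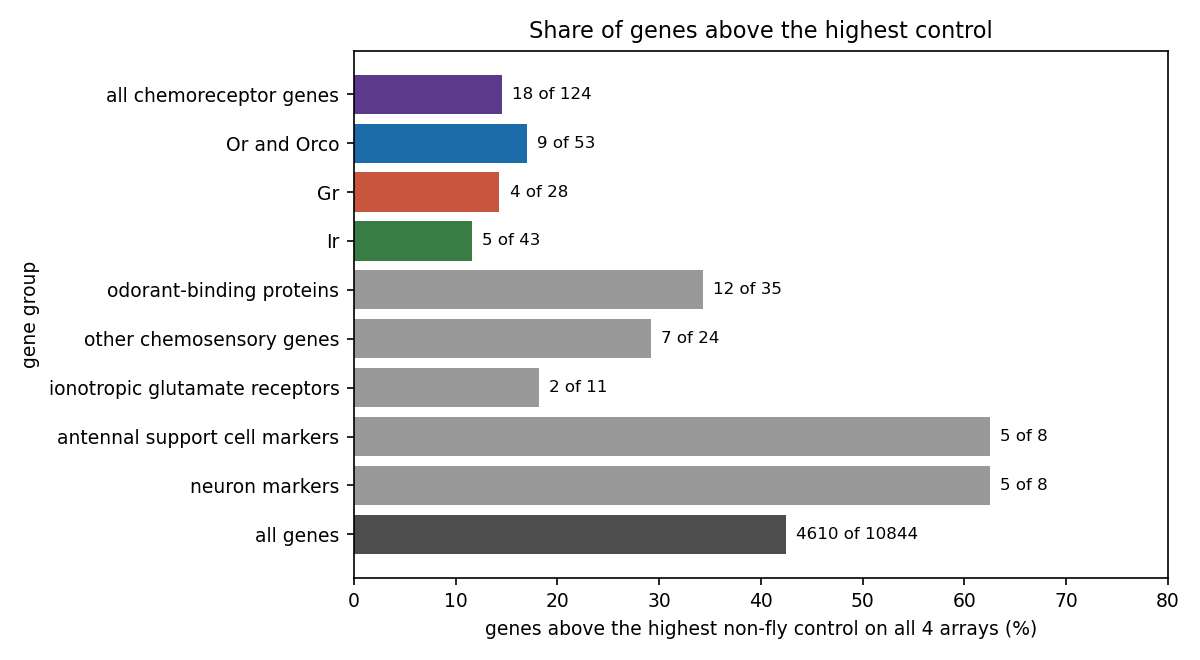
Share of genes (%) above the highest non-fly control on all 4 arrays, for the chemoreceptor genes, their families, gene lists of related function and all genes. The numbers at the bars are genes above the control out of genes measured. The chemoreceptor bars reach 11.6% to 17%, and the bar of all genes 42.5%.

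The next question was how far the receptor genes varied between the baseline samples. This spread may be technical, since the labels do not say whether cultures were separate. For the genes not above background it describes values mostly within the range of the controls. The spread was small. The median coefficient of variation was 6.56% over the 124 receptor genes, 6.28% over the controls and 5.79% over all genes. It was 5.16% for the 18 genes above background and 7.03% for the other 106. Over all genes it was 5.13% for those above background and 6.38% for the others. The gene with the smallest value was Or85e at 99.8 ± 1.27 and the one with the largest Gr93a at 14.5 ± 4.35 (SD, n = 4). Between pairs of arrays, the median absolute log2 difference was 0.09 to 0.13 for the receptor genes and 0.07 to 0.10 for all genes. A single receptor gene differed by more than 2-fold between a pair of arrays, which was Gr93a (9.17 on array 3 and 18.9 on array 4). Between arrays 3 and 4, 46 of all 10844 genes differed by more than 2-fold.

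Dim receptor genes kept their order between arrays. Over the 106 genes not above background, Pearson's r of log2 intensity was 0.972 to 0.983 across the 6 pairs of arrays. Over the 23 controls, which were designed for other species, r was 0.965 to 0.988. Over all 124 receptor genes it was 0.983 to 0.989. These correlations run across probe sets of the same arrays, which share probe affinities, and are given as descriptions.

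Excess variance, a trend over the labelled hours and a difference of 1 array from the other 3 were tested with limma over all 8379 probe sets that passed an intensity filter at 92.5. The filter kept 37 probe sets of 36 receptor genes, 14 Or, 7 Gr and 15 Ir, among them all 18 genes above background, and left 88 genes untested. In the variance test 0 receptor probe sets passed an adjusted p of 0.05, where 0.274% of all probe sets did, and 0 of 37 had an unadjusted p under 0.05, against 5.53% of all probe sets. The SD of log2 intensity relative to that expected at the intensity had a median of 0.95 over the 124 receptor genes and 0.93 over all genes. It exceeded 2 in 3 receptor genes (2.42%), Gr93a, Ir48c and Gr93b, and in 6.45% of all genes. The largest value of each family was 2.07 for Gr93a, 2.04 for Ir48c (75.1, 81.3, 69.5 and 93.3) and 1.99 for Or98b (56.3, 41.6, 55.9 and 45.4). The median members of their families were Gr8a, Ir7a and Or98a, with values between 0.89 and 1.03.

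No receptor gene passed for a trend over the labelled hours (limma, 0 of 37, and 0% of all probe sets). Unadjusted p-values under 0.05 were found for 3 receptor probe sets (8.11%) and for 11.6% of all. The smallest belonged to Gr57a, whose log2 intensity had a slope of 0.10 ± 0.03 (SE) per labelled hour (adjusted p = 0.365). Without array 3 the same slope was 0.11 ± 0.03 and passed (limma adjusted p = 0.0346), with 3 arrays left, and 3.83% of all probe sets passed in that setting. The other 2 were Or46a with a slope of -0.08 and Ir85a with one of 0.07 (adjusted p = 0.402 and 0.432).

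No receptor gene passed in a comparison of 1 array with the mean of the other 3, in which the lone array is assumed to vary like the others (limma, 0 of 37 for each array). The share called over all probe sets was 0% for array 1, 0.107% for array 2, 0.704% for array 3 and 0.0119% for array 4. Unadjusted p-values under 0.05 numbered 1, 0, 0 and 2 for arrays 1 to 4 (2.7%, 0%, 0% and 5.41% of the receptor probe sets), against 2.05%, 2.83%, 6.46% and 8.63% of all probe sets. For array 4 they belonged to Or9a, higher by 0.23 ± 0.08 (SE, log2, adjusted p = 0.554), and Ir85a, higher by 0.20 ± 0.08 (adjusted p = 0.554). With neither floor nor filter, 0 of all 129 receptor probe sets passed in any of these tests (limma). Over all probe sets that setting called 0.43% for variance, 0% for the trend and 0%, 0.0573%, 1.02% and 0% for arrays 1 to 4. Of the receptor probe sets, 1 (0.775%) had an unadjusted p under 0.05 for variance and 7 (5.43%) for the trend, against 5.58% and 10% of all probe sets. For arrays 1 to 4 the numbers were 2, 3, 6 and 8 (1.55%, 2.33%, 4.65% and 6.2%), against 2.39%, 2.7%, 7.78% and 7.12% of all.

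Although no single gene passed, the receptor genes were most often brightest on array 4. Of the 124 genes, 66 (53.2%) had their highest value there, 17 on array 1, 12 on array 2 and 29 on array 3. Over all genes the share on array 4 was 26.4%, and over the 5683 genes with a mean below that of the highest control 29.9%. The median deviation of the receptor genes from their own means was 0.07 on array 4 and -0.03, -0.03 and -0.00 on arrays 1, 2 and 3 (log2). On array 4 it was 0.08 for Or, 0.10 for Gr and 0.06 for Ir genes, 0.06 for the non-fly controls and -0.01 for all genes. The controls were highest on array 4 in 10 of 23 cases and on array 3 in another 10. Odorant-binding protein genes had a median deviation of -0.06 on array 4, and 5 of 35 (14.3%) were highest there. The share highest on array 4 was 33.3% of the 24 other chemosensory genes and 45.5% of the 11 ionotropic glutamate receptor genes, with median deviations of 0.00 each. Of the 8 neuron markers 0 were highest there, and their median deviation was -0.08. The 18 receptor genes above background had one of 0.05, and 11 of them were highest on array 4. The part of the background level of array 4 in this shift was not tested, and no p is given for it, since the genes share the array.

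**Figure D4:**
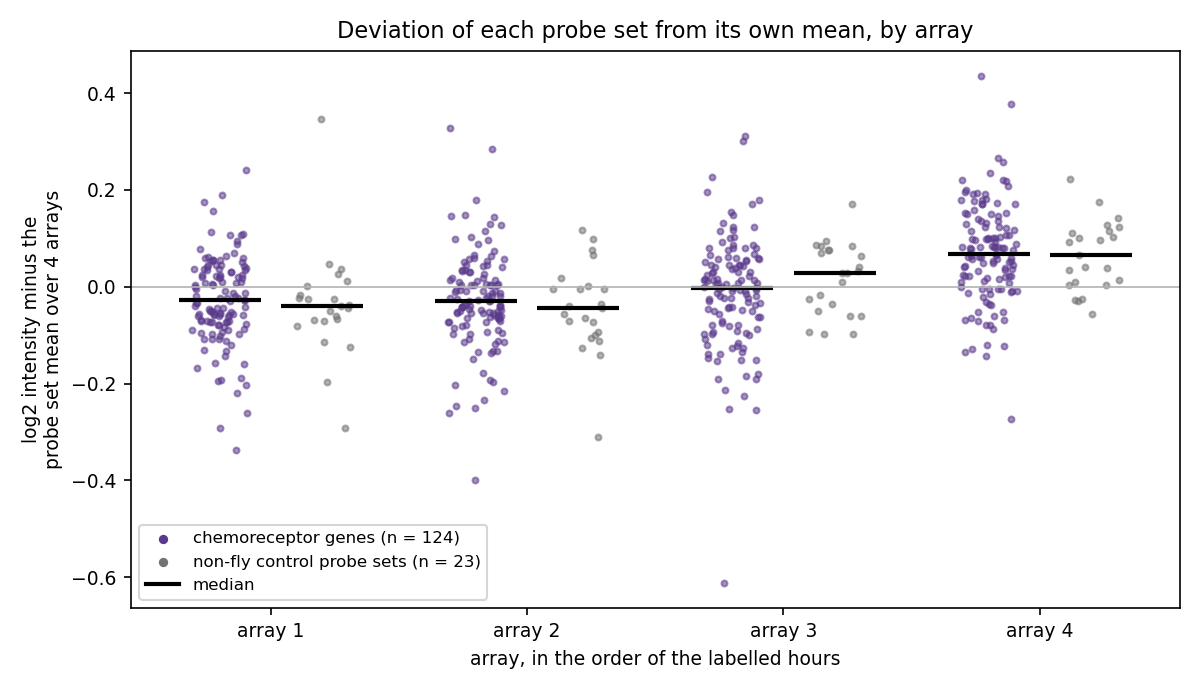
Log2 intensity of each chemoreceptor gene (purple) and each non-fly control probe set (grey) minus its own mean over the 4 arrays, by array in the order of the labelled hours, with black bars at the medians. On array 4 the medians of both groups are above 0, at 0.07 for the receptor genes and 0.06 for the controls.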

How the data were processed

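Total RNA of whole flies was hybridised to one-colour Affymetrix arrays, 1 sample each. The deposited intensity values had been normalized between arrays by the authors with DNA-Chip Analyzer (dChip) through an invariant set of probes, per the labels. The sources used here give neither the dChip version nor its background model. Such a normalization rests on probes whose rank is stable between arrays, and differences that depend on brightness may remain. With 4 arrays, their number sets the precision.

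In all, 14010 probe sets were listed, 44 of them Affymetrix controls. Of the other 13966, 12443 matched 1 gene in the platform annotation, 327 several and 1196 none. Symbols of 12394 were updated through gene identifiers to RefSeq's table (Release 6 plus ISO1 MT), which changed none of the 129 receptor probe sets. No coordinates of it are given. Of the controls, 23 served as background. The 9 added bacterial hybridisation controls and 12 fly control transcripts did not.

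Background counts used the deposited values. For tests, values were raised to the 20th percentile (57.1), log2 was taken and probe sets with a mean above the 40th percentile of means were kept. Variances were compared with a robust, intensity-trended prior (squeezeVar). Trends and single arrays were tested with a robust, trended eBayes, two-sided, all with Benjamini-Hochberg adjustment over 8379 probe sets (R 4.3.3, limma 3.58.1, statmod 1.5.0). The tests were tested on simulated data.

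The receptor genes and all lists were chosen with earlier results of these data known. Genes were named by rule: those above background, those with a role in the lists, those with the largest and median relative SD per family, and those whose probe sets disagree. Genes with the smallest p, those passing on 2 or 3 arrays and neighbouring genes were named after their values were seen. Alternatives changed the control level, the probe set, floor, filter, scaling and prior, and left out each array.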

Additional observations from a re-analysis of the deposited data

Results flagged for a closer look

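In 3 of the 124 receptor genes, the value of 1 array was far from the other 3 by Dixon's criterion for 4 samples. Chance alone flags about 1 gene in 20, and the share here was 2.42%. Only the receptor genes were examined in this way, so no share over all genes is given. Or2a had 169 on array 2, against 187 to 189 on the others. Or23a had 102 on array 4, against 86.5 to 87.9. Ir7d had 93.2 on array 4, against 103 to 105. Or2a was above background on all arrays, while Or23a and Ir7d lay within the range of the controls.

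A probe set that matches both Ir75d and the cytochrome oxidase subunit gene COX6AL2 entered no count, because its signal cannot be given to either gene. It had a mean of 132 and values of 128, 135, 130 and 135, above the highest control on all 4 arrays. The probe set shared by Gr64b and Gr64c had 15.5 to 21.0, and that shared by Gr64d and Gr64e 33.1 to 38.5, both below the median control on all arrays.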

How the results depend on the processing

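The count of 18 receptor genes above background kept within 1.5 times of that value, at 17 to 24, under 12 of 14 alternatives. With the second highest control or the 95th percentile of the controls as the line it was 24 each time, with 1 array sufficing 22, with means over the arrays 21, and with the lowest-mean probe set 17. With 1 array sufficing, 102 of 124 receptor genes and 5240 of all 10844 genes did not pass. For the other alternatives except the median control, no share of all genes is given, so these counts describe the receptor genes alone. Leaving out 1 array gave 18 to 20, with 9 to 10 Or, 4 to 5 Gr and 5 to 6 Ir genes. With the median control as the line the count was 82 (36 Or, 16 Gr and 30 Ir), or 66.1% against 85.4% of all genes, and with the added bacterial controls in the set it was 0 for every family, since these are added as bright standards. Ir8a was lost with its lower probe set, at 0.852 times the highest control. Ir92a, at 0.975 times the highest control, passed under 5 alternatives other than the median control. The count of receptor genes brightest on array 4 was 63 after quantile normalization, 66 after median centring, and 70 to 84 with 1 other array left out, alternatives chosen after seeing the data, against 28.8%, 26% and 31% to 37.3% of all genes.

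No receptor gene passed in any test under the alternative floors, scalings, priors and stricter filter, or, with the 3 exceptions given next, under the other settings. Without replicate 3, Gr57a passed for the trend, as did 3.83% of all probe sets, so that leaving out 1 array gave 0 to 1 there and 0 to 0 for the other tests. With the floor but no filter, 2 genes passed for array 3 and 4 for array 4. In each of these the other 3 arrays lay at the floor, which leaves no variance, so that setting says nothing about them. The median absolute log2 difference between arrays was 0.104, 0.093 to 0.121 with 1 array left out, and 0.053 with 57.1 added to each value before log2. The 88 receptor genes below the intensity filter were tested in the setting with neither floor nor filter, where none passed.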
